A study of Mus musculus with 28 samples.

Results

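The genes described here are 5 of the 53801 features measured in regulatory T (Treg) cells from the spleens and brain tumors of mice. They are the Ly6 surface antigens *Ly6a*, *Ly6c1*, *Ly6c2* and *Ly6e*, together with *Plac8*. The members were chosen by gene symbol, and *Ly6a* and *Plac8* were picked as strongly higher in GBM (glioblastoma) than in splenic Treg cells. The rule names no treatment arm, and the earlier results known when the genes were picked showed both after control antibody. The differences of *Ly6a* and *Plac8* between tissues are therefore given as a description in both arms, without a test, as are all values of the comparison after control antibody.

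The mice carried CT2A, a murine GBM cell line grown in the forebrain, and the genotype and age of the mice are not stated in the labels. Once the tumors were established, the mice received 4 doses of 250 µg every 3 days, either IgG2a as control or αPD1 + αGITR, antibodies against the receptors PD1 and GITR, and organs were taken 2 days after the last dose. Cells with surface TCR and CD4, high CD25 and low CD127 were sorted as Treg cells, with CD8 T cells sent to a dump channel, and bulk libraries of their RNA were prepared with Smart-Seq2, which amplifies full-length cDNA. In the IgG2a arm, 7 splenic and 5 GBM libraries were used, and in the αPD1 + αGITR arm 8 splenic and 7 GBM libraries. The description of the series has the samples of a tissue come from separate mice. Several labels of a tissue share a number, such as that of 79_a, whose meaning is not stated, so that p-values measure the spread between these samples. Expression is given as TPM (the abundance of a transcript scaled to its length and to a fixed total per library), and differences as differences of mean log2(TPM + 1). In bulk libraries, fewer cells of a type and less RNA per cell cannot be told apart.

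Ly6 proteins are small, cysteine-rich proteins that fold into a three-finger domain and are mostly held in the outer leaflet of the membrane by a GPI (glycosylphosphatidylinositol) anchor. Several of them rise on T cells after activation and after exposure to interferons, and Ly6A, also called Sca-1, and Ly6C have long served as surface markers of activated and memory T cells, of stem cells and of monocytes. Plac8 is also small and rich in cysteines, but it is not a Ly6 protein and carries no GPI anchor. It is abundant in placenta and in several myeloid and lymphoid cells.

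In GRCm38 the Ly6 members lie on chromosome 15, inside the *Ly6* gene cluster. *Ly6e* (ENSMUSG00000022587) spans chr15:74955051-74959905 on the plus strand. *Ly6a* (ENSMUSG00000075602) spans chr15:74994877-74998031, *Ly6c1* (ENSMUSG00000079018) chr15:75044018-75048830 and *Ly6c2* (ENSMUSG00000022584) chr15:75108158-75111970, all on the minus strand. *Plac8* (ENSMUSG00000029322) lies apart from them, at chr5:100553725-100572245 on the minus strand. The coding sequences of *Ly6c1* and *Ly6c2* were 97.7% identical, those of *Ly6a* and *Ly6c1* 82.8%, and those of *Ly6a* and *Ly6e* 56.0%. The pair *Ly6c1* and *Ly6c2* is shown because the difference between tissues in these data had opposite signs for the paralogs, and reads can be assigned to one of them only at bases that differ. Both coding sequences (GENCODE M21, first listed transcript) have 396 bases, of which 9 differ. Bases 1 to 300 are printed, and capitals mark the differing ones:
Ly6c1 coding: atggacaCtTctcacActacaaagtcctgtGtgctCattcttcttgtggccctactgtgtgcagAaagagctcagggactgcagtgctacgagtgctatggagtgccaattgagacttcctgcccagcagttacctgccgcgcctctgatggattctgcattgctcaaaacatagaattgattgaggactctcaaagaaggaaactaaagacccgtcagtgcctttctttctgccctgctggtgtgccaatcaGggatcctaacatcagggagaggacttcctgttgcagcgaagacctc
Ly6c2 coding: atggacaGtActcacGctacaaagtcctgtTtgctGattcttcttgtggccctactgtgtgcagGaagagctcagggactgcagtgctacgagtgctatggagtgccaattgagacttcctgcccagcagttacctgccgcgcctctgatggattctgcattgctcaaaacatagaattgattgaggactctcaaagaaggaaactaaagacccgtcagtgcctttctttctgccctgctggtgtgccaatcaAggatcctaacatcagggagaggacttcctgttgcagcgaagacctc

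Of the 9 differing bases, 7 lie in the printed stretch, and the longest run that the whole transcripts share is 188 bases. The values of each of these paralogs therefore rest partly on how the authors' estimate divided shared reads, and each was also analyzed with the values of the pair added up.

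Upstream of the start sites, the paralogs are less alike. RefSeq promoter windows (GRCm38.p6) matched 3 of the 5 members, *Ly6c1*, *Ly6c2* and *Plac8*. The 250 bases before the start site of *Ly6c1* (chr15:75048838-75049087, minus strand) and of *Ly6c2* (chr15:75111972-75112221, minus strand) aligned at 59.9% identity. In the first pair of sequences below, capitals mark runs of at least 12 bases found in both, which make up 47 bases of each. The upstream sequence of *Plac8* (chr5:100572206-100572455, minus strand) is shown because this member had the largest difference between tissues of the 5 after αPD1 + αGITR, and its capitals mark a T-box motif. The start site of *Plac8* in RefSeq lies 40 bases inside the GENCODE gene, so that the last 40 bases of its window belong to that gene:
Ly6c1 upstream: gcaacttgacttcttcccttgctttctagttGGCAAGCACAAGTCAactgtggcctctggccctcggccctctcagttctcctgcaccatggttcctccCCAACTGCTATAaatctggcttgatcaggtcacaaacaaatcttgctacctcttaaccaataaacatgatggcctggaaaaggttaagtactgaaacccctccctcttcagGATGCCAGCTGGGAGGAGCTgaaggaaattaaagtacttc
Ly6c2 upstream: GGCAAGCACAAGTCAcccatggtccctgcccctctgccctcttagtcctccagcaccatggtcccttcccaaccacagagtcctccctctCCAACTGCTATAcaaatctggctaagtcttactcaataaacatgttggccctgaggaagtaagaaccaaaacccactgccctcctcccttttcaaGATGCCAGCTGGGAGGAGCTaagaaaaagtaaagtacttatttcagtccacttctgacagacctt
Plac8 upstream: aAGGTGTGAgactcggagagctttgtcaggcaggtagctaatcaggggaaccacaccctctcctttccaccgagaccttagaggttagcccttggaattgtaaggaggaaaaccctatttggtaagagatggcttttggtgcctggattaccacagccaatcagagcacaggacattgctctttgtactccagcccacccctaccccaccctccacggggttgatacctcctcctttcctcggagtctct

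A total of 4 short motifs were searched on both strands. They were the GAS element bound by STAT factors (TTCNNNGAA), the core of the interferon-stimulated response element (GAAANNGAA), the T-box (AGGTGTGA) and the AP-1 site (TGANTCA). The only match in the 3 windows was the T-box upstream of *Plac8*. Of 32851 windows of this length, 1.12% held the T-box, 7.02% the GAS element, 7.13% the response element core and 6.75% the AP-1 site. A match to letters is a description and not a site of binding.

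The sorted cells carried transcripts of their labelled type. *Foxp3*, the transcription factor that defines Treg cells, was listed at 21.5 TPM or more in every library, and *Cd8a* at 6.15 TPM or less. *Cd8b1*, the other CD8 chain gene, was higher, with up to 8.60 and 25.2 TPM in spleen and up to 16.4 and 36.3 TPM in GBM after IgG2a and αPD1 + αGITR, and its part in the values of the members was not tested. The T cell markers fixed for this work (6 genes, *Cd3e* and *Lck* among them) summed to 244 to 2016 TPM in splenic and 1661 to 3733 TPM in GBM Treg cells after αPD1 + αGITR, and to 168 to 2406 and 1177 to 3166 TPM after IgG2a, so that T cell transcripts themselves took a larger share of the GBM libraries. Of 11 macrophage and microglia markers, the sum was 64.3 to 634 and 10.1 to 613 TPM in the splenic groups, 102 to 12870 TPM in GBM after IgG2a and 105 to 5859 TPM in GBM after αPD1 + αGITR. The libraries above 1000 TPM were 79_a of the IgG2a GBM group and 73_a (5859) and 74_a (2111) of the treated GBM group. The 10 monocyte markers summed to 44.4 to 288 TPM in spleen and 99.5 to 236 TPM in GBM after αPD1 + αGITR, and to 53.5 to 363 and 86.5 to 1782 TPM after IgG2a. Of the 4 that were tested between the treated tissues, 1 was higher in GBM, *Ccr2* (9.54 to 52.1 against 0.04 to 5.66 TPM), and none lower, while *F13a1* was at 0 in all 7 treated GBM libraries. Other lists also held markers that were higher in treated GBM. Of the macrophage and microglia markers 2 of 6 tested were higher in treated GBM. Of 8 plasmacytoid dendritic cell markers, 1 of 2 tested was higher, *Bst2* (93.1 to 377 against 0 to 79.4 TPM). The other, *Pacsin1*, went the other way, with a mean of 23.3 TPM in GBM against 60.1 TPM in spleen. The 8 markers summed to 29.2 to 169 TPM in treated spleen and 131 to 391 TPM in treated GBM. *Bst2* is also counted below among the GPI-anchored and the interferon-stimulated genes. Of 7 plasma cell markers, 1 of 2 tested was higher, *Prdm1*, which T cells also express, and they summed to 15.2 to 209 and 148 to 355 TPM, with *Jchain* at 0.73 TPM or less and *Tnfrsf17* at 0 in the treated GBM libraries. The part of these lists in the values of the members was not tested. The number of genes above 1 TPM ranged from 7702 to 17460, and the 10 most abundant features took 31.9% to 78.3% of the TPM of a library. The number of reads per library is unknown.

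*Ly6a*, the gene of Sca-1, was abundant in every GBM library and lower in every splenic one. Splenic Treg cells had 4.74 to 107.8 TPM after IgG2a (median 15.9, n = 7) and 2.36 to 151 TPM after αPD1 + αGITR (median 41.6, n = 8). GBM Treg cells had 472, 488, 567, 962 and 1825 TPM after IgG2a, and 347 to 782 TPM after αPD1 + αGITR (median 670, n = 7). The lowest GBM library thus lay above the highest splenic library in both treatment groups, whereas the groups of 1 tissue overlapped.

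*Plac8* separated the tissues in the same way, at lower levels. Its splenic values were 0 to 3.64 TPM after IgG2a (median 0.92), with 3 libraries listed at 0, and 0 to 9.19 TPM after αPD1 + αGITR (median 2.15), again with 3 at 0. In GBM it was listed at 19.9, 43.4, 51.8, 103 and 158 TPM after IgG2a and at 59.5 to 157 TPM after αPD1 + αGITR (median 111). No splenic library reached the lowest GBM library.

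*Ly6e*, whose product is known to limit the entry of some viruses into cells, had the highest mean level of the members in each group. Its splenic values ran from 63.2 to 1832 TPM after IgG2a (median 363) and from 108 to 1105 TPM after αPD1 + αGITR (median 329). In GBM it was listed at 509, 644, 828, 1131 and 1622 TPM after IgG2a and at 778 to 2319 TPM after αPD1 + αGITR (median 1109). The tissues overlapped, since spleens ranged widely while no GBM library fell below 509 TPM.

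*Ly6c1* and *Ly6c2*, whose products together make up the Ly6C antigen, were the least abundant Ly6 members. *Ly6c1* was listed at 2.56 to 44.0 TPM in spleen after IgG2a (median 5.87) and at 0 to 66.2 TPM after αPD1 + αGITR (median 6.12). In GBM it was listed at 0.27, 0.38, 3.36, 4.52 and 30.1 TPM after IgG2a, and after αPD1 + αGITR 4 of 7 libraries were at 0 and the others at 0.46, 1.69 and 4.16 TPM. *Ly6c1* was thus near the floor in most GBM libraries, yet its groups overlapped in both treatments.

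*Ly6c2* showed the opposite order. Its splenic values were 0 to 10.8 TPM after IgG2a (median 0.45) and 0 to 14.9 TPM after αPD1 + αGITR (median 3.08). In GBM they were 3.10, 5.32, 11.6, 13.5 and 72.3 TPM after IgG2a and 7.30 to 39.1 TPM after αPD1 + αGITR (median 15.4). The highest GBM value, 72.3 TPM, came from the library with the highest macrophage marker sum, 79_a, which also had the highest GBM value of *Ly6c1*.

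**Figure D1:**
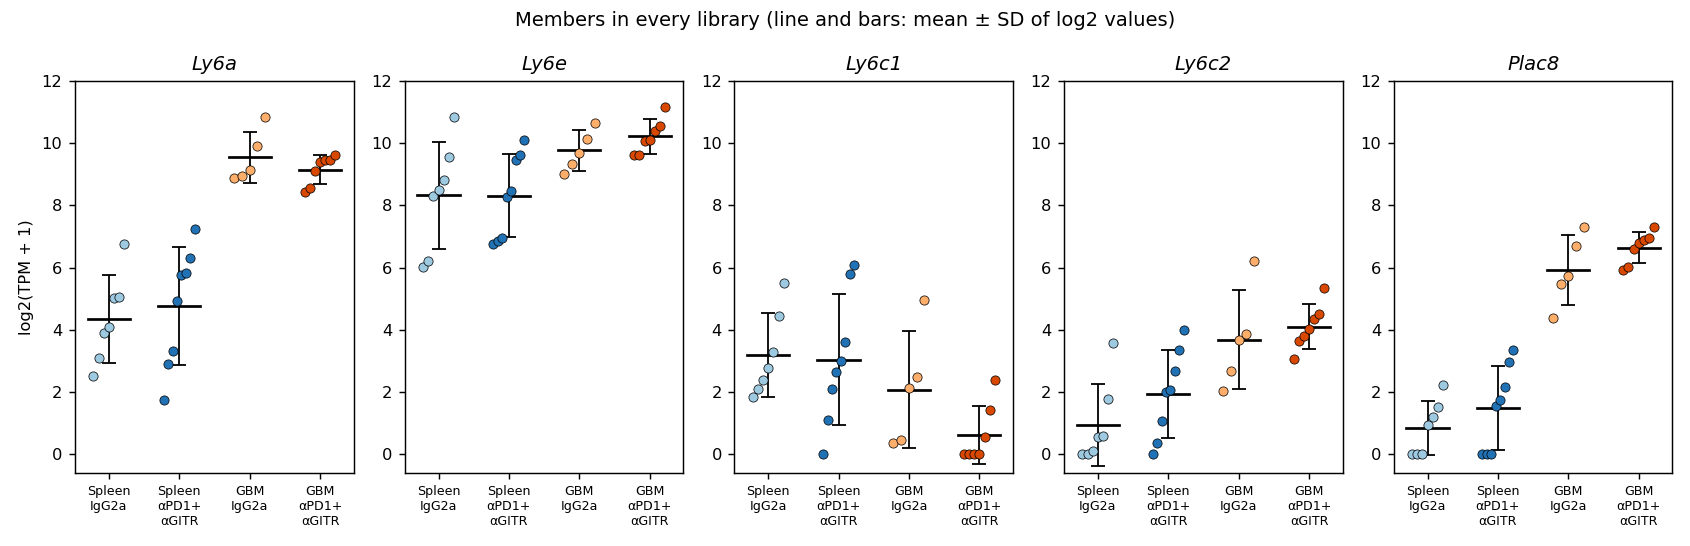
Level of each member, as log2(TPM + 1) on the vertical axis, in every library of the 4 groups (points), with the mean and SD of the log2 values (line and bars). *Ly6a* and *Plac8* separate GBM from spleen in both treatment groups, while *Ly6e*, *Ly6c1* and *Ly6c2* overlap between tissues.

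Ordered by mean TPM, *Ly6a* was highest in GBM after IgG2a, then GBM after αPD1 + αGITR, then treated and IgG2a spleen, and only the step from GBM to spleen exceeded the ranges. For *Plac8* the order was treated GBM, IgG2a GBM, treated spleen and IgG2a spleen, with a gap of ranges again only between the tissues. Neighbouring groups overlapped at every step for *Ly6e*, *Ly6c1* and *Ly6c2*. Relative to the mean, the spread between libraries was smallest in treated GBM for *Ly6a*, *Plac8*, *Ly6e* and *Ly6c2*, with coefficients of variation of 28.8%, 33.1%, 41.96% and 57.7%, whereas that of *Ly6c1* was largest there, at 174%.

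After αPD1 + αGITR, *Ly6a* and *Plac8* were far higher in GBM than in splenic Treg cells. No p is given for them, since the rule that picked them names no arm. Genes with a mean above 10 TPM in at least 1 of the groups were tested. *Ly6a* and *Ly6e* passed this filter in both tissues, *Plac8* and *Ly6c2* only through GBM (mean of 103.9 against 2.97 TPM and of 18.1 against 4.62 TPM) and *Ly6c1* only through spleen (18.6 against 0.90 TPM). A gene that enters through 1 group tends to differ, so the members that passed are not counted as a result. Among all 7506 genes tested, 15.8% were higher and 1.61% lower in GBM at an adjusted p under 0.05 (limma, Benjamini-Hochberg), and the median difference of all of them was 0.95, so that members are best read against that shift. *Plac8* was higher by 5.17 on the log2 scale (standard error 0.59) and *Ly6a* by 4.39 (standard error 0.66). For both, all 7 GBM libraries lay above all 8 splenic libraries, as did those of 2.96% of the genes tested, a share from which nothing is read for picked genes. With libraries rescaled to their T cell markers, the differences were 2.84 for *Ly6a* and 4.14 for *Plac8*.

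*Ly6e* was higher in GBM by 1.91 (limma, standard error 0.52, adjusted p = 0.0199), with p = 0.00435 in the exact permutation test. Of the 7 GBM libraries, 4 were above the highest spleen. Its difference was 0.95 above the median of all genes, less than that of *Ly6a* (3.44) or *Plac8* (4.21). Relative to the T cell markers it was 0.28 and not past the threshold (adjusted p = 0.555). Without the GBM libraries 73_a and 74_a the difference was 2.05 (adjusted p = 0.0531), without 70_a it was 1.75 (adjusted p = 0.0511), and without the filter it was the same 1.91 (adjusted p = 0.124).

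The differences of the Ly6C genes had opposite signs, and neither gene passed the threshold without the filter on expression. *Ly6c2* differed by 2.16 (limma, standard error 0.64), with an adjusted p of 0.115 without and 0.0288 with the filter, and 4 of its 7 GBM values were above the highest spleen. *Ly6c1* differed by -2.42 (limma, standard error 0.84), with an adjusted p of 0.213 without and 0.0494 with the filter, and all 7 GBM libraries lay below the splenic median. In exact permutation tests, which use no other genes and are not adjusted, p was 0.00326 for *Ly6c2* and 0.0154 for *Ly6c1*. With the pair added up, the difference was 0.63 (adjusted p = 0.496), which has the sign of *Ly6c2* and did not pass. Both calls made with the filter stood close to the threshold, and each gene had passed it only through the tissue where its mean was higher. That of *Ly6c1* was lost without any 1 of 11 of the 15 libraries (adjusted p up to 0.0893), and that of *Ly6c2* without the splenic library 72_b or either of the GBM libraries 70_a and 70_b (adjusted p up to 0.0697). Without 73_a and 74_a the differences were 2.26 for *Ly6c2* (adjusted p = 0.0719) and -2.17 for *Ly6c1* (adjusted p = 0.139). Rescaling by TMM-type factors left *Ly6c2* at 1.58 (adjusted p = 0.127) and *Ly6c1* at -2.70 (adjusted p = 0.0426).

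**Figure D2:**
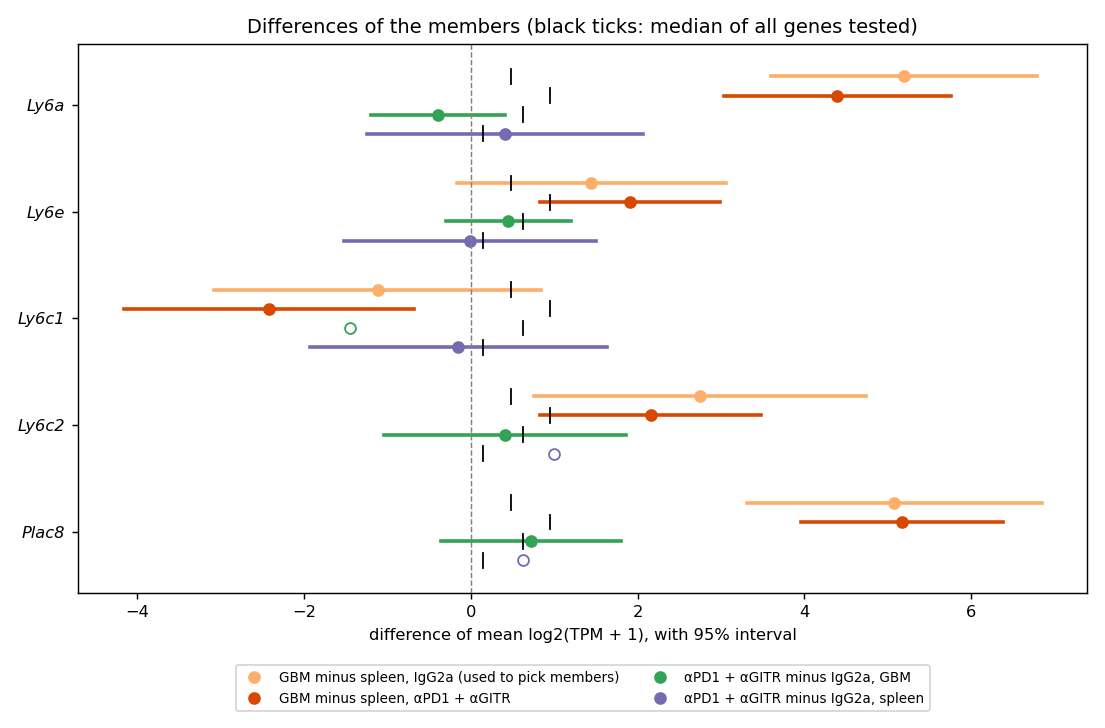
Differences of mean log2(TPM + 1) of each member in 4 comparisons (horizontal axis, filled points, with 95% intervals of the limma fit), and the median of all genes tested (black ticks). Open points mark members below the filter on expression, which have no interval. *Ly6a* and *Plac8* lie 4.39 and 5.17 above 0 between tissues after αPD1 + αGITR, *Ly6c1* lies at -2.42, and every interval of a treatment difference includes 0. Between tissues, the intervals of *Ly6a* and *Plac8* describe the spread of genes that were picked as higher in GBM.

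After IgG2a, the comparison taken as that on which *Ly6a* and *Plac8* were picked, the differences between tissues were 5.20 for *Ly6a* (standard error 0.78), 5.08 for *Plac8* (0.87), 2.75 for *Ly6c2* (0.98), 1.45 for *Ly6e* (0.79) and -1.11 for *Ly6c1* (0.96). The median of all 7380 genes was 0.48. All 5 GBM libraries lay above all 7 spleens for *Ly6a* and *Plac8*, as they did for 1.25% of all genes, a share from which nothing is read for that reason. Without the library 79_a the values were 5.10, 4.88, 2.12, 1.22 and -1.84, in the same order of genes. No p is given for these differences.

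Ratios within a library depend on the total that TPM is scaled to only through the pseudocount. They were looked at after the values of the members had been seen and have no test. *Ly6c2* exceeded *Ly6c1* in all 5 IgG2a and all 7 treated GBM libraries, but in 0 of 7 IgG2a and 2 of 8 treated spleens. The log2 ratio of *Ly6c2* to *Ly6c1* was 1.61 ± 0.98 (SD, n = 5) in GBM after IgG2a and 3.47 ± 1.28 (SD, n = 7) after αPD1 + αGITR, against -2.25 ± 1.29 (SD, n = 7) and -1.10 ± 1.70 (SD, n = 8) in spleen. In the treated groups the 2 tissues did not overlap in this ratio, with a lowest GBM value of 1.63 and a highest splenic value of 1.07. With pseudocounts of 0.1 and 10 the treated tissues differed by 6.96 and 1.90 in this ratio, against 4.57 with a pseudocount of 1. The value is thus set largely by the pseudocount, since *Ly6c1* was at 0 in 4 treated GBM libraries.

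The log2 ratio of *Ly6a* to *Ly6e* was -3.97 ± 0.62 (SD, n = 7) and -3.56 ± 0.77 (SD, n = 8) in spleen after IgG2a and αPD1 + αGITR. In GBM it was -0.22 ± 0.57 (SD, n = 5) after IgG2a and -1.07 ± 0.49 (SD, n = 7) after αPD1 + αGITR. *Ly6a* thus stood closer to *Ly6e* in GBM than in spleen in every library, and exceeded it in 1 GBM library after IgG2a. In GBM the ratio was lower after treatment by 0.85 on average, and 5 of 7 treated libraries lay below every IgG2a library. The IgG2a GBM libraries also entered the comparison taken as that on which *Ly6a* was picked.

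**Figure D3:**
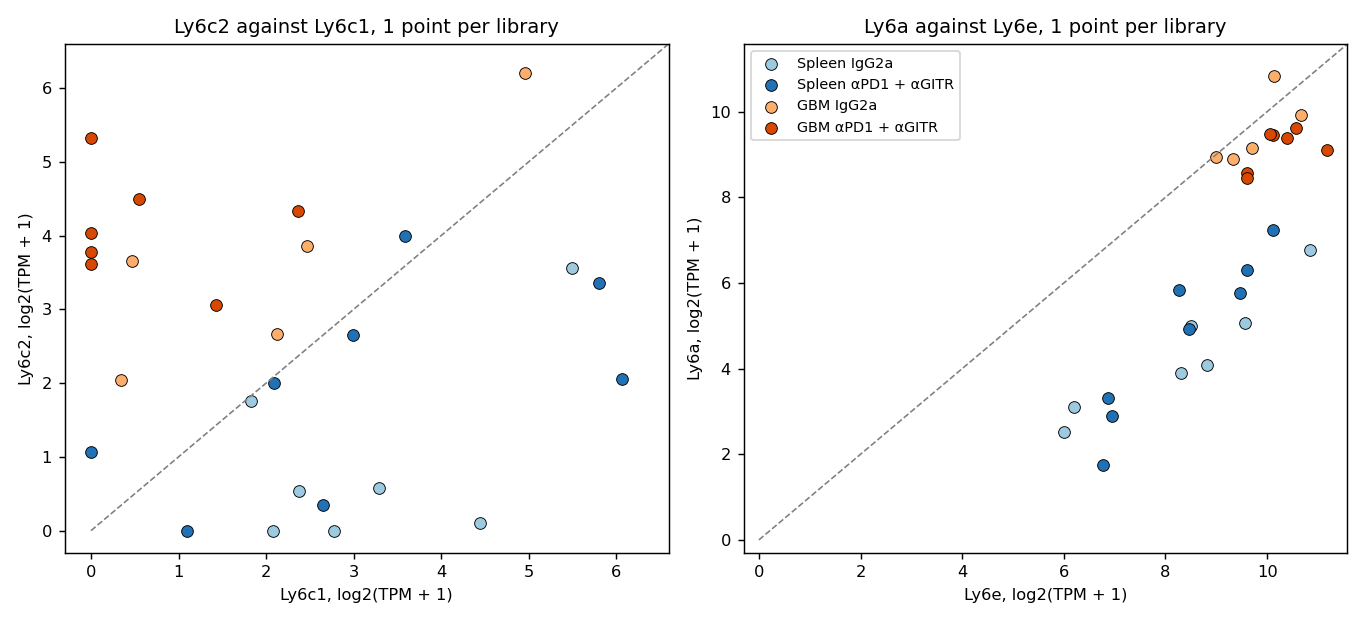
*Ly6c2* against *Ly6c1* and *Ly6a* against *Ly6e*, both as log2(TPM + 1), with 1 point per library, colors for the 4 groups and a dashed line of equal levels. All 12 GBM libraries lie above the line for the Ly6C pair, and 1 GBM library after IgG2a lies above it for *Ly6a* against *Ly6e*.

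Treatment was compared with IgG2a within GBM to ask whether αPD1 + αGITR changed the members. Neither *Ly6e* nor *Ly6c2* passed the threshold, and neither did any of the 7848 genes tested (0% at an adjusted p under 0.05, limma). At an unadjusted p under 0.05 were 1749 genes, or 22.3%, without *Ly6e* and *Ly6c2*. Under the other settings tried, 0 to 263 genes passed the adjusted threshold, the most with library weights. *Ly6e* differed by 0.45 (95% interval -0.30 to 1.20, limma, adjusted p = 0.441) and *Ly6c2* by 0.41 (-1.04 to 1.86, adjusted p = 0.721). *Plac8* differed by 0.72 (-0.35 to 1.80) and *Ly6a* by -0.39 (-1.20 to 0.41). For these genes no p is given, since a high IgG2a GBM level may have been what they were picked on. The median of all genes was 0.62. *Ly6e*, *Ly6c2* and *Plac8* thus lay within 0.22 of that median, and *Ly6a* lay 1.02 below it. Single libraries moved these values. Without the IgG2a library that was highest in *Ly6a* (1825 TPM) the difference was 0.00082 for *Ly6c2*, -0.071 for *Ly6a* and 0.34 for *Plac8*, and without 79_a that of *Ly6c2* was 1.04. Leaving out 1 library at a time gave 0.26 to 0.68 for *Ly6e*, 0.00082 to 1.04 for *Ly6c2*, 0.34 to 1.07 for *Plac8* and -0.56 to -0.071 for *Ly6a*. TMM-type factors turned *Ly6e* to -0.25 and *Ly6c2* to -0.20. *Ly6c1* did not reach a mean of 10 TPM in either GBM group and was not tested. Its difference was -1.45, and the single library 79_a at 30.1 TPM held most of its IgG2a level.

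In spleen, neither *Ly6c1* nor *Ly6e* passed the threshold. Of the 6634 genes tested, 0 passed at an adjusted p under 0.05 (0%, limma), and 168 (2.53%), without *Ly6c1* and *Ly6e*, had an unadjusted p under 0.05. Other settings gave 0 or 1 gene. The differences were -0.15 for *Ly6c1* (95% interval -1.93 to 1.63) and -0.0083 for *Ly6e* (-1.52 to 1.51), both with an adjusted p of 1.00 in limma after rounding. That of *Ly6a*, given without a p for the same reason as in GBM, was 0.41 (-1.25 to 2.06). These intervals span several-fold changes in both directions, so that a change of that size was not detectable. *Ly6c2* and *Plac8* did not reach the filter on expression in spleen. Their differences were 1.00 and 0.63.

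Whether treatment acted differently in the tissues was tested by the interaction over all 4 groups. It gave 0.46 for *Ly6e* (limma, adjusted p = 0.869), -0.59 for *Ly6c2* (adjusted p = 0.847) and -1.30 for *Ly6c1* (adjusted p = 0.695). Of 8687 genes, 0 (0%) passed the adjusted threshold and 1056 (12.2%) had an unadjusted p under 0.05, none of these 3 members among them. Other settings gave 0 to 2 genes. For *Ly6a* and *Plac8* only the values are given, -0.80 and 0.09, since they contain the difference after IgG2a. Over the alternatives they ran from -1.30 to 0.19 and from -0.47 to 0.44, so that neither sign held under every alternative. Leaving out 1 library at a time, *Ly6a* stayed negative (-1.23 to -0.45), while *Plac8* ran from -0.29 to 0.44.

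Around the members, the other genes listed had low group means. The list held 43 symbols of the Ly6 cluster, of the wider Ly6/uPAR family and of genes related to *Plac8* or only named alike. Among them was *Onzin*, another name of *Plac8* itself, which was not in the table. Of the symbols, 37 were in the table, none reached a group mean above 10 TPM, and 10 had no library above 1 TPM. The highest group means in this set, singled out after the values were seen, were those of *Spaca4* and *Ly6i*, a close neighbour of the Ly6C genes. They rest on few libraries, since *Spaca4* exceeded 1 TPM in 6 of 27 libraries, with 37.0 TPM in the highest, and *Ly6i* in 4, with 29.99 TPM in the highest. *Ly6g*, the neutrophil antigen of the same cluster, reached 4.42 TPM in its highest library. The genes above 1 TPM in the most libraries were *Plaur*, in 13 with up to 16.8 TPM, and *Cd59b*, in 12 with up to 13.9 TPM.

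Of other GPI-anchored lymphocyte proteins, 2 of 10 tested were higher and 1 lower in treated GBM against treated spleen. *Bst2* (tetherin) was higher by 3.59 (limma, adjusted p = 0.00254) and *Cd52* by 1.85 (adjusted p = 0.0456), while *Cd24a* had a difference of -3.76 (adjusted p = 0.0212). *Cd24a* passed the filter only through spleen (mean of 0.67 against 98.3 TPM), and without a filter 0 genes of the list were lower. The median of the list was 0.91, close to the 0.95 of all genes. With TMM-type factors 1 was higher and 1 lower, with quantile normalization 1 and 2, relative to T cell markers 1 and 3 of 9, and without 73_a and 74_a 2 and 0. Of the enzymes that build the GPI anchor and attach it, 5 of 19 were higher and none lower, against 15.8% and 1.61% of all genes. The largest differences among them were 2.55 for *Mppe1* (adjusted p = 0.0238), 2.31 for *Pigyl* (adjusted p = 0.0345) and 2.18 for *Pigs* (adjusted p = 0.0327). *Pigyl* passed the filter only through GBM (mean of 14.8 against 3.22 TPM), and without a filter 1 of 28 enzymes was higher. With TMM-type factors 0 of 19 were higher and 1 lower, with quantile normalization 1 higher and 1 lower, relative to T cell markers 0 of 17 higher and 1 lower, and without 73_a and 74_a 0 of 18 in either direction. In these settings 3.77%, 5.90%, 0.782% and 4.62% of all genes were higher.

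Known interferon-stimulated genes, the class that *Ly6a* and *Ly6e* belong to, were mostly higher in GBM after αPD1 + αGITR. Of the 29 tested, 24 were higher and none lower, against 15.8% and 1.61% of all genes, with a median difference of 2.66. Part of these genes passed the filter through GBM alone. Of the 15 with a mean above 10 TPM in both tissues, 10 were higher, against 10.6% of all such genes, and without any filter 12 of 32 were, against 0.572% of all genes, with none lower in either setting. *Ifit1*, *Ifit3* and *Ifit3b*, of a family that binds foreign RNA, had the largest differences, 5.07 (limma, adjusted p = 1.23e-05), 4.85 (adjusted p = 6.84e-05) and 4.03 (adjusted p = 0.000301). Each of them passed the filter only through GBM, with splenic means of 1.00, 3.16 and 0.21 TPM, so nothing is read from these p-values. *Ifit1* was listed at 56.9 ± 29.0 TPM in GBM (SD, n = 7) and 1.00 ± 1.76 TPM in spleen (SD, n = 8). Of 17 interferon receptor and signalling genes, 8 were higher and none lower, against the same 15.8% and 1.61%. *Irf7* was higher by 3.78 (adjusted p = 0.000780), the interferon gamma receptor gene *Ifngr1* by 3.62 (adjusted p = 4.28e-05), from 71.2 to 765 TPM, and the feedback inhibitor *Socs1* by 2.68 (adjusted p = 0.0178). With TMM-type factors 16 of the 29 targets and 4 of the 17 signalling genes were higher, relative to T cell markers 9 and 1, with 1 signalling gene lower, and without 73_a and 74_a 17 and 5. In these settings 3.77%, 0.782% and 4.62% of all genes were higher. *Ifit* and *Irf* genes are also expressed by macrophages, and the part of the markers of such cells in these differences was not tested beyond leaving out those libraries.

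Genes of activated and memory CD4 T cells were split, with 8 of 16 higher and 3 lower, against 15.8% and 1.61% of all genes. With TMM-type factors or quantile normalization 5 were higher and 4 lower, relative to T cell markers 2 and 4, and without 73_a and 74_a 6 and 1. Of all genes, 3.77%, 5.90%, 0.782% and 4.62% were higher in these settings. Of the calls among all genes, 46.9%, 40.5% and 6.08% were higher with TMM-type factors, quantile normalization and T cell markers. The filter also bears on the counts of these lists. Among genes above 10 TPM in both tissues, 5 of 12 of these activation genes were higher and 1 lower. Higher were also 6 of 16 interferon signalling genes, 3 of 12 GPI anchor enzymes and 1 of 6 other GPI-anchored genes, with none lower. Of all genes above 10 TPM in both tissues, 10.6% were higher. Without any filter 2 of 18 activation genes were higher and 1 lower, and 4 of 18, 1 of 28 and 1 of 18 genes of the other lists were higher. In that setting 0.572% of all genes were higher. *Tbx21*, which encodes T-bet, was higher by 3.73 (limma, adjusted p = 0.00606), the receptor gene *Klrg1* by 3.67 (adjusted p = 0.00156) and the chemokine gene *Ccl5* by 3.35 (adjusted p = 0.00618). Of these, *Klrg1* passed the filter only through GBM (mean of 81.1 against 9.55 TPM), so nothing is read from its p-value. The lower genes, named after their values were seen, were *Tcf7*, a transcription factor gene of naive and memory T cells, with a difference of -2.70 (adjusted p = 0.00685), the survival gene *Bcl2* with -2.46 (adjusted p = 0.0190) and the lymph node homing receptor gene *Ccr7* with -2.15 (adjusted p = 0.0152). In the comparisons of treatment, 0 genes of any of these lists passed the adjusted threshold in GBM or in spleen (limma). At an unadjusted p under 0.05 in GBM, 6 of 29 interferon-stimulated targets, 5 of 17 signalling genes, 7 of 14 activation genes and 6 of 18 GPI anchor enzymes were higher, and 1 of these enzymes was lower, against 22.3% of all genes in either direction. In spleen, 1 of 15 activation genes and 1 of 10 other GPI-anchored genes were higher, against 2.53% of all genes.

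**Figure D4:**
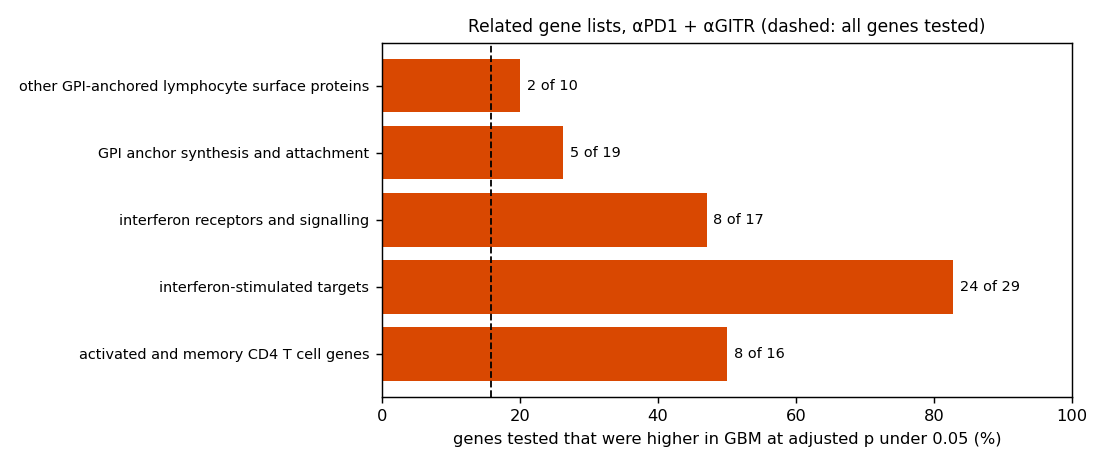
Share of the tested genes of 5 related lists that were higher in GBM than in splenic Treg cells after αPD1 + αGITR at an adjusted p under 0.05 (bars, in percent, with counts), against the 15.8% of all genes tested (dashed line). The interferon-stimulated targets reach 24 of 29, and the other GPI-anchored proteins 2 of 10.

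Within groups, members followed different genes from library to library. After each group's mean was taken off, *Ly6a* and *Ly6e* had a Pearson r of 0.88 (Spearman rho 0.87) over 27 libraries, and r of 0.88 without the 2 libraries farthest out. The genes most like *Ly6e* were *Rpsa* (r = 0.98, rho = 0.97), *Rpl18* (0.96, rho = 0.96) and *Rps15* (0.96, rho = 0.96), which encode ribosomal proteins, and its r with the summed T cell markers was 0.94. *Ly6a* was most like *Supt4a* (r = 0.95, rho = 0.96), *Arhgdib* (0.93, rho = 0.92) and *Aldoa* (0.93, rho = 0.90), and its r with the T cell markers was 0.88. *Plac8* was most like *Smim8* (r = 0.86, rho = 0.90), *Hmgn2* (0.85, rho = 0.87) and *Atp5g1* (0.85, rho = 0.86), with 0.51 for the T cell markers. *Ly6c1* was most like *Pfdn1* (r = 0.82, rho = 0.64), *Nop16* (0.81, rho = 0.82) and *Hnrnpd* (0.80, rho = 0.74), and *Ly6c2* most like *Smn1* (r = 0.82, rho = 0.82), *Rars* (0.80, rho = 0.73) and *Kif22* (0.79, rho = 0.76). The paralogs *Ly6c1* and *Ly6c2* had r of 0.57 with each other. These are the highest of 8686 genes, the points share the scaling of their library, and the values are a description without a p.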

How the data were processed

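Reads were demultiplexed with bcl2fastq and aligned to mm10 with TopHat2, per the submitters' processing notes, and the authors calculated TPM with RSEM. The deposited table holds a score, TPM plus 1, for 53801 features, before any filter. One was taken off to recover TPM. Of 28 libraries described, 27 were used. A total of 1 value column has no name and was left out, as was the treated spleen without a named column. Spearman correlations of library pairs were 0.486 to 0.736, so none was counted as a duplicate.

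log2(TPM + 1) was fitted with limma 3.58.1 in R 4.3.3 (trend), on the groups compared, for genes with a mean above 10 TPM in at least 1 group, with two-sided p-values adjusted by Benjamini-Hochberg over all genes tested. Single genes were also compared by exact permutation tests over libraries. The tissue comparison after αPD1 + αGITR shares its groups with both treatment comparisons. The fits were tested on simulated data. Read depth is unknown, so precision rests on the spread between libraries alone, and no limit is set on values of 0.

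Named were the members, per member the 3 genes most like it within groups, and per related list up to 3 genes past the threshold with the largest difference (without any, the 2 most abundant, not printed here). Members, lists and markers were chosen with earlier results of these data known. Alternatives were pseudocounts of 0.1 and 10, other filters, TMM-type factors (30% and 5% trimmed), quantile normalization, rescaling without the 10 most abundant features, the number of genes detected as a covariate, library weights, all groups in one fit, replicate blocks and leaving out each library. Rescaling to T cell markers, leaving out GBM libraries high in macrophage markers, other filters for the related lists and the ratios were added after seeing the data. Gene positions and transcripts are from GENCODE M21, whose GRCm38 is the authors' mm10, and promoters from RefSeq.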

Additional observations from a re-analysis of the deposited data

Results flagged for a closer look

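In 6 of the 20 combinations of member and group, the highest library stood apart from the rest by Dixon's test on TPM. For normally distributed values chance gives about 1 in 20. TPM values are skewed and the combinations share libraries, so that rate does not hold here and no excess is read. Of the 6 combinations, 3 concern the splenic IgG2a library 79_b, which held the highest *Ly6a* (107.8 TPM, next 32.5), *Ly6c2* (10.8 TPM, next 2.39) and *Ly6e* (1832 TPM, next 752). It also had the highest sums of its group for 7 of 12 marker lists, among them T cell (2406 TPM), Treg (1625 TPM), monocyte (363 TPM), B cell (64.8 TPM), endothelial cell (61.2 TPM), neutrophil (22.9 TPM) and CD8 T cell (10.1 TPM), and its 10 most abundant features took 31.9% of its TPM. A further pair came from the GBM IgG2a library 79_a, with *Ly6c1* at 30.1 TPM (next 4.52) and *Ly6c2* at 72.3 TPM (next 13.5). Its macrophage and microglia markers summed to 12870 TPM and its monocyte markers to 1782 TPM, and the part of either in these values was not tested. The last was *Ly6c1* in the treated GBM library 73_b, at 4.16 TPM (next 1.69), in a group with 4 libraries at 0.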

How the results depend on the processing

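Between tissues after αPD1 + αGITR, *Ly6a* (2.84 to 4.75) and *Plac8* (3.11 to 6.60) kept their direction under every alternative that gave a value. The replicate block by label number and letter gave 4.10 for *Ly6a*, -3.28 for *Ly6c1*, 2.03 for *Ly6c2*, 1.82 for *Ly6e* and 4.96 for *Plac8*, none past the threshold, and 1 gene in all. A replicate block by number alone gave 495 genes, and took the calls of *Ly6c1* (-2.64), *Ly6c2* (2.05) and *Ly6e* (1.84). Whether the numbers pair the libraries is not stated. After αPD1 + αGITR, same-numbered libraries of the 2 tissues had correlations of -0.159 to 0.0895 (5 pairs, 1 of them matching best with its own number). After IgG2a they were -0.112 to 0.182 (4 pairs, 1 matching best). Correlations of so few pairs cannot decide this.

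In the same comparison, calls were lost as follows, and unless said the cause was not tested. A pseudocount of 0.1 left 678 genes, with *Ly6c1* at -4.01 and *Ly6c2* at 2.96, and one of 10 left *Ly6c1* at -0.97. Without a filter, which adds genes to the adjustment, 256 genes passed and *Ly6c1* (-2.42), *Ly6c2* (2.16) and *Ly6e* (1.91) did not. A mean above 10 TPM in every group left 565 genes. TMM-type factors left 604 genes and *Ly6c2* at 1.58, and quantile normalization left *Ly6c2* at 1.30. Rescaling without the 10 most abundant features left 467 genes, *Ly6c1* at -3.13 and *Ly6c2* at 2.21. With the number of genes detected as a covariate 811 genes passed and *Ly6c1* (-2.31) did not, with library weights 2123 genes passed and *Ly6c1* (-1.96) did not, and with all groups in one fit 724 genes passed and *Ly6c1* (-2.42) did not. The sum of the Ly6C genes gave 0.63, against the sign of *Ly6c1*. Relative to T cell markers *Ly6e* was at 0.28 and *Ly6c2* fell below the filter, as did both Ly6C genes and *Plac8* with the filter in every group, and without GBM libraries high in macrophage markers 360 genes passed and *Ly6c1* (-2.17), *Ly6c2* (2.26) and *Ly6e* (2.05) did not. Over the scalings the median of all genes went from 0.95 to 0.27 (TMM-type), 0.15 (quantile), 0.34 (without abundant features) and -0.87 (T cell markers), and the share of calls that were higher in GBM from 90.8% to 46.9%, 40.5%, 84.2% and 6.08%. Leaving out 1 library at a time gave 591 to 2279 genes, -2.85 to -1.98 for *Ly6c1*, 1.88 to 2.45 for *Ly6c2* and 1.69 to 2.16 for *Ly6e*.

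For treatment in GBM, 1 gene passed with a pseudocount of 0.1, without a filter, with quantile normalization or without abundant features, 2 with a pseudocount of 10, 79 with the covariate, 263 with library weights, 88 relative to T cell markers, 4 without libraries high in macrophage markers and 0 to 103 leaving out 1 library, the most without the treated library 73_b. Neither *Ly6e* nor *Ly6c2* passed in any of these. Signs turned for *Ly6c2* (-0.20 with TMM-type factors, -0.28 with quantile normalization, -0.16 relative to T cell markers), for *Ly6e* (-0.25 with TMM-type factors, -0.092 relative to T cell markers) and for *Ly6a* (0.014 with library weights), and the sum of the Ly6C genes gave 0.17. In spleen 1 gene passed with quantile normalization. Signs turned for *Ly6c1* (0.10 with a pseudocount of 10, 0.18 in the sum, -0.58 to 0.28 leaving out 1 library), *Ly6e* (0.18 with the covariate, -0.39 to 0.41) and *Ly6a* (-0.20 with library weights). In the interaction, 0 to 2 genes passed leaving out 1 library. *Ly6a* was at 0.19 with library weights and *Plac8* at -0.47 with TMM-type factors. *Ly6e* was at -0.040 with TMM-type factors and *Ly6c2* at 0.15 without libraries high in macrophage markers and -1.03 to 0.040 leaving out 1 library.

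After IgG2a, the tissue differences were 4.39 (*Ly6c2*) and 6.83 (*Plac8*) with a pseudocount of 0.1, 1.06 and 2.69 with 10, 0.65 for the sum of the Ly6C genes, and 3.87 (*Ly6a*) and 0.064 (*Ly6e*) relative to T cell markers. The ratio of *Ly6c2* to *Ly6c1* differed by 6.96 and 1.90 between treated tissues, by 3.37 and 0.64 for treatment in GBM and by 2.48 (0.1 only) in spleen with pseudocounts of 0.1 and 10. The unknown read depth limits what values near 0 can show, chiefly for *Ly6c1*, *Ly6c2* and splenic *Plac8*.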
